A study of Mus musculus with 34 samples.

Results

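Cytosolic ribosomal protein genes encode the proteins of the large and the small subunit of the ribosome outside mitochondria. They were taken by symbol: protein-coding mouse genes named Rpl or Rps with a number and an optional final a, l or x, together with Rplp0, Rplp1, Rplp2 and Rpsa. This gave 80 of the 51368 genes counted, 49 of the large subunit and 31 of the small. Another 3 symbols fit the pattern (Rps4l, Rpl6l and Rpl32l) but are annotated as pseudogenes and were left out. In the liver comparisons 77 members passed the filter on low counts. The other three, Rpl10l, Rpl39l and Rpl3l, had between 0 and 3 counts in every liver library and were not tested there.

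Each ribosome holds 1 copy of most of these proteins around its ribosomal RNAs, and the cell makes them in matched amounts. Their mRNAs are short, abundant and stable, carry poly(A) tails, and typically begin with a run of pyrimidines, the 5′ terminal oligopyrimidine (TOP) motif, through which the mTOR pathway controls their translation. Mammalian genomes also hold many retrotransposed copies of these genes, so that short reads can match several places.

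The series compared ways of preparing RNA sequencing libraries from the organs of 1 wild-type C57BL/6J mouse aged 12 weeks, whose sex the labels give in conflicting ways. The animal had no treatment or genetic change, all groups share it, and the libraries are separate preparations, so every p-value below measures the spread between preparations and not between animals. Liver RNA was selected with oligo-dT beads (polyA, 9 libraries, batch 1), freed of ribosomal RNA by hybridisation and pull-down (9 libraries, batch 2) or by probe-directed enzymatic digestion (9 libraries, batch 2), or left unselected (3 libraries in each batch). Each selected set crossed 3 fragment lengths (short, medium, long) with 3 temperature ramp rates of the PCR machine (slow, medium, fast), 1 library each. The 6 unselected liver libraries, and a single one of heart in batch 1, were all of medium length with the slow ramp. Selected libraries began from 200 ng of RNA and unselected ones from 20 ng, all with 13 PCR cycles, and the digestion kit differs from the other kits in how adapters are joined, so that the selection step, input and kit cannot be told apart.

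Libraries held between 19873384 and 41396087 estimated counts in total, except for the pull-down library with the slow ramp and long fragments, which held 1126377. That library stood apart, and results that move without it are marked. In the unselected liver, genes typed as ribosomal RNA together with Lars2 took 78.8% to 81.2% of counts, and members there rested on a median of 306 counts (batch 1) and 298 counts (batch 2) per gene and library, against 1431 to 6638 in the sets of selected libraries. The tissue labels matched their markers: 9 of 9 cardiomyocyte genes were higher in heart than in each of the 6 unselected liver libraries, and the summed hepatocyte genes reached 46.4 normalised CPM in heart against 13060 to 13268 in liver. Normalised CPM is the count of a gene scaled to a library of common size, on totals adjusted by TMM, a method that takes most genes as unchanged.

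Ribosomal protein mRNAs were among the most abundant of unselected liver. Per kilobase of transcript, the median member stood at 20.8 normalised CPM, the 97.3rd percentile of 14998 protein-coding genes with a count, whose median was 0.566. Levels per kilobase were highest for Rplp1, an acidic protein of the stalk that recruits translation factors, at 50.7 ± 4.15 (SD, n = 6). Rps2, a protein of the mRNA entry channel of the small subunit, followed at 48.8 ± 2.69, and Rpl41, a very small basic protein of the large subunit, at 42.95 ± 3.75. Rplp1 and Rps2 differed by less than their SD, and Rps29 (38.9 ± 2.50) came next after Rpl41. The lowest tested members were Rps15a at 1.76 ± 0.222, Rpl12 at 0.702 ± 0.174 and Rps27 at 0.677 ± 0.494 per kilobase. Rpl12 and Rps27 are among the members whose reads were mostly assigned to copies, described below, and the transcript used for Rps15a is the longest of all, at 5179 bases. Member transcripts had a median length of 878 bases against 2950 over protein-coding genes, and a GC content of 51.8% against 50.3%. They lay on many chromosomes, with 14 on chromosome 7 and 4 on X.

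Start sites were examined because the TOP motif is the sequence feature these genes are known for. RefSeq promoters (GRCm38.p6) were at hand for 60 of the 80 members. A C followed by at least 4 C or T on the transcribed strand, within 10 bases either side of an annotated start, was found in 34 of the 60 (56.7%) and in 8088 of 27025 genes (29.9%). The windows below are shown for abundant members and for the heart paralog Rpl3l. Others are members lower in digestion than in pull-down libraries, with a tract (Rpl38, Rpl13a, Rps6) and without one (Rpl36a, Rpl26). Rps26 and Rps16 are a pair not called lower in that comparison as deposited, though the pull-down level of Rps16 was itself low. Each is the transcribed strand, 5′ to 3′, with the tract in capitals.
Rps2: gtcgagatctcgcgCTTCTTg
Rpl41: gggccggctcggaagtgacga
Rpl38: aagcctcgttCTTTCCCCgtt
Rpl13a: cctgcgacaagaCCTCCTCCT
Rps6: gaagtcgggCCTCTTTTTCgt
Rpl36a: cccaggcaccgcctataaact
Rpl26: ggcaacttacagaaccggaag
Rps26: gcaagccgccggatCCTCTTT
Rps16: ttctgtcgtgacgtagcactc
Rpl3l: ttctagctctgtcatttgacc
The windows lie at chr17:24720053-24720073 (Rps2), chr10:128549158-128549178, minus strand (Rpl41), chr11:114668570-114668590 (Rpl38), chr7:45128735-45128755, minus strand (Rpl13a), chr4:86857357-86857377, minus strand (Rps6), chrX:134585644-134585664 (Rpl36a), chr11:68901556-68901576 (Rpl26), chr10:128626496-128626516, minus strand (Rps26), chr7:28350679-28350699 (Rps16) and chr17:24727816-24727836 (Rpl3l). Rpl41, Rpl36a, Rpl26, Rps16 and Rpl3l had no such letters in this window. The members low in digestion libraries were picked with and without the tract. Its relation to the members' values was not tested. The annotated start need not be the one used in liver, and a match is a description of letters only.

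Part of what a member counts depends on its copies. Matching pseudogenes and named coding copies to the members' coding sequences (at least 80% identity over at least 50% of the length) found 1779 copies, and 77 of the 80 members had at least 1. For 22 of the 77 tested members, less than 90% of the counts of the member plus its copies were on the member itself in at least 1 liver group. The value of such a member depends on how reads were divided between it and its copies, so the results below are given for the counts as deposited and again with the copies' counts added to the member. That second count was chosen after the data were seen.

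Rps27, a zinc-finger protein of the small subunit (chr3:90212522-90213651, minus strand, GRCm38, 4 exons), shows this most plainly. Its coding sequence of 252 bases is identical, with 0 differences, to that of Rps27rt on chromosome 9 (chr9:114982366-114982739), a retrotransposed coding copy. The sequence is printed once for both.
Rps27: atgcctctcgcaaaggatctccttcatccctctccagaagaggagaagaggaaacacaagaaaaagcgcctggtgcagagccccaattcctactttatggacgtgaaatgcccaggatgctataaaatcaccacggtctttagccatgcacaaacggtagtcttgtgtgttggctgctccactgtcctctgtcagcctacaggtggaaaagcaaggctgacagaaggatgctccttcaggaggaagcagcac
Rps27 had 0.206, 1.25 and 2.23 normalised CPM in the unselected libraries of batch 1 and 0.625, 0.628 and 0.838 in batch 2. It ran from 26.1 through a median of 84.7 to 106 in polyA libraries, and from 1.87 through 49.1 to 149 in pull-down libraries. Digestion libraries gave 0.799 to 22.0 with a median of 1.63. The polyA libraries thus all lay above the unselected ones, while pull-down and digestion libraries spread over more than an order of magnitude each. Rps27rt in the same groups had medians of 58.7, 56.7, 20.8, 34.1 and 35.6 (unselected batch 1, batch 2, polyA, pull-down, digestion). Summed over both genes, the medians were 58.9, 57.3, 117, 86.5 and 36.8, with ranges of 100.5 to 173 in polyA, 74.4 to 156 in pull-down and 33.6 to 44.7 in digestion. For the sum, the polyA libraries did not overlap the digestion libraries, nor did the pull-down libraries.

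Rpl10, which sits near the peptidyl transferase centre and joins the large subunit late in its assembly (chrX:74270812-74273135), had a like split. Its 642 coding bases are identical to those of Rpl10-ps3 on chromosome 9 (chr9:50344201-50344968), which the annotation types as protein-coding. Rpl10 held 16.6% ± 4.37 (SD, n = 3) of the family's counts in unselected batch 1, and 12.4% ± 2.15 (n = 3) in batch 2. It held 76.2% ± 29.0 (n = 9) in polyA, 79.9% ± 29.6 (n = 9) in pull-down and 99.4% ± 0.147 (n = 9) in digestion libraries. Rpl5, which carries 5S ribosomal RNA into the large subunit, kept 5.8% to 25.2% on average across the liver groups, most of its family's counts being on Gm15500. Rpl12, of the stalk base, kept 4.4% to 7.3%, with Gm10275 holding most of the rest. Copies identical to a member over its coding sequence also took counts from Rpl27, Rpl31 and Rpl27a.

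The share of counts in ribosomal protein genes differed between methods. As a percentage of nuclear protein-coding counts, the 80 members together took 1.01 ± 0.00997 (SD, n = 3) in unselected liver of batch 1 and 0.991 ± 0.0091 (n = 3) in batch 2. They took 1.57 ± 0.0724 (n = 9) in polyA libraries, 1.497 ± 0.193 (n = 9) in pull-down libraries and 0.810 ± 0.0660 (n = 9) in digestion libraries. On this share, polyA and pull-down libraries all lay above the unselected ones, and digestion libraries all lay below them. Within each method the long-fragment libraries were highest, with means of 1.66 (polyA), 1.75 (pull-down) and 0.896 (digestion) against 1.52, 1.37 and 0.753 for short fragments. The heart library gave 1.07. Since the denominator is the same kind of gene in each library, this share does not depend on how much ribosomal RNA was sequenced. The place of digestion libraries turned with the denominator. As a percentage of counts without ribosomal RNA genes and Lars2, they held 0.678 to 0.811. Unselected libraries held 0.661 to 0.672 (batch 1) and 0.607 to 0.648 (batch 2) on that measure, all below them. PolyA libraries held 1.42 to 1.57 and pull-down libraries 0.936 to 1.28.

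**Figure D1:**
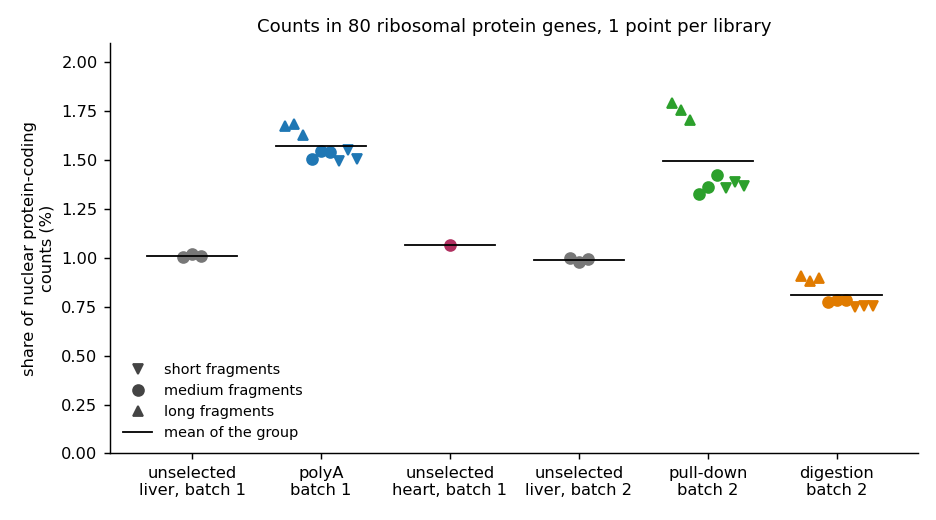
Percentage of nuclear protein-coding counts (y axis) in the 80 ribosomal protein genes for each of the 34 libraries, by group (x axis), with fragment length as marker shape and the group mean as a black line. PolyA and pull-down means (1.57 and 1.497) sit above the unselected means (1.01 and 0.991), and the digestion mean (0.810) sits below them. As a percentage of counts without ribosomal RNA genes and Lars2 (not plotted), the digestion mean (0.731) is above the unselected means (0.667 and 0.629).

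PolyA libraries were set against the unselected libraries of their own batch, to see what oligo-dT selection does to these mRNAs. In edgeR's quasi-likelihood test with Benjamini-Hochberg adjustment over 15422 genes (called at an adjusted p under 0.05), 72 of the 77 members were higher, 0 were lower and 5 were not called; over all genes 25.6% were higher and 24.8% lower. No member was lower at an unadjusted p under 0.05 (0), nor by DESeq2 (0). The median log2 fold change of the members was 0.80 against 0.04 over all genes, and the middle 50% of members lay between 0.70 and 0.89. By subunit, 43 of 46 large (median 0.78) and 29 of 31 small members (median 0.83) were higher; the difference between the subunits was not tested. With the copies added, all 77 were higher, between 0.59 and 1.18, and the standard deviation across members fell from 0.62 to 0.11. Of the cell type markers, 7 of 8 hepatocyte (median 0.60) and 4 of 5 erythroid genes (0.36) were higher in polyA libraries, while 4 of 4 endothelial (-1.54), 3 of 3 fibroblast (-0.55) and 3 of 5 immune genes (-0.30) were lower, and 1 hepatocyte gene was lower. Their part in the members' values was not tested. No unselected library of batch 1 reached the range of the polyA libraries for the members described next.

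Rplp0, the platform of the stalk and a common reference gene for PCR, had 147, 144 and 153 normalised CPM unselected and 219 to 272 (median 248) in polyA libraries. Rpl13a, a large subunit protein also used as a reference gene and known from interferon-controlled translation, had 126, 122 and 116 against 218 to 243 (median 232). Rpl11, which with Rpl5 holds back Mdm2 when ribosome assembly fails, had 75.01, 72.5 and 78.7 against 167 to 188 (median 182), a log2 fold change of 1.16 ± 0.07 (SE; edgeR adjusted p = 4.5e-14). Rpl11 was the member with the largest rise among those not split with copies. The larger values of Rps27 (5.404 ± 1.82, edgeR adjusted p = 0.0141) and Rpl10 (2.67 ± 0.37, edgeR adjusted p = 4.63e-07) are those of split genes. The call for Rps27 was lost without the first or the third unselected library of batch 1.

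Pull-down libraries went the same way against the unselected libraries of batch 2. In the edgeR fit 69 members were higher (17.5% of all genes), 1 was lower (15.3% of all genes) and 7 were not called, with a median of 0.62 (all genes 0.06). With copies added 73 were higher and 1 lower, and the standard deviation across members went from 0.69 to 0.21. Of the cell type markers, 6 of 8 hepatocyte (median 0.35), 4 of 5 immune (0.55), 4 of 4 endothelial (0.34), 2 of 3 fibroblast (0.44, with 1 lower) and 3 of 5 erythroid genes (0.52) were higher as well, and their part was not tested. Rpl35, near the exit of the nascent chain, had 28.3, 27.3 and 21.0 normalised CPM unselected and 40.4 to 75.1 (median 53.2) after pull-down, a log2 fold change of 0.93 ± 0.10 (edgeR adjusted p = 7.23e-09). All its pull-down libraries lay above the unselected ones.

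Rps16, a protein of the small subunit's head near the P site (chr7:28350652-28353155), was the exception. It had 61.3, 48.2 and 75.005 unselected and 29.4 to 70.3 (median 41.8) after pull-down, with overlap between the groups and a log2 fold change of -0.56 ± 0.13 (edgeR adjusted p = 9.71e-04), which was 1.70 on unscaled library totals, where the median of all genes was 2.31. Added to its closest copy Rps16-ps2, it had 71.9 to 80.9 unselected, 47.7 to 70.3 after pull-down, 126 to 169 in polyA and 72.5 to 88.1 in digestion libraries. For that sum the pull-down libraries lay below those of every other liver group. The call for Rps27 here (5.81 ± 2.19, edgeR adjusted p = 0.0404) was lost without any 1 of the 3 unselected libraries of batch 2.

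Digestion libraries went the other way. Against the unselected libraries of batch 2, 3 members were higher (7.06% of all genes), 53 were lower (7.66% of all genes) and 21 were not called in the edgeR fit, with a median log2 fold change of -0.43 against 0.04 over all genes; on unscaled library totals the split was 76 higher and 0 lower, and on totals without ribosomal RNA and Lars2 it was 28 higher and 25 lower. The median of all genes was 2.85 and 0.59 under those scalings. These scalings move all genes alike. Relative to the median gene the members' median was -0.47 with TMM. Of the cell type markers, 4 of 5 erythroid (median -5.65), 2 of 3 fibroblast (-0.38), 2 of 5 immune (-0.30) and 1 of 4 endothelial genes (-0.20) were lower and 1 of 8 hepatocyte genes higher (-0.13), and their part was not tested. By subunit, 31 of 46 large (median -0.41) and 22 of 31 small members (median -0.47) were lower with TMM. With copies added, 1 member was higher and 57 were lower, between -1.78 and 0.50, and 52 were lower in both counts. Without the shallow pull-down library in the shared fit, 5 members in place of 3 were higher.

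The 3 members called higher after digestion were Rpl10 (2.62 ± 0.38), Rpl35 and Rpl15. Rpl10 turned to -0.19 with its copies added and Rpl15, from 0.37 ± 0.12, to -0.065. The call for Rpl15 was lost without the second (0.26) or the third (0.40) unselected library of batch 2. Rpl35 had 33.5 to 50.9 normalised CPM (median 40.3) after digestion against 28.3, 27.3 and 21.0 unselected, a log2 fold change of 0.50 ± 0.10 (edgeR adjusted p = 5.6e-04), and the groups did not overlap. Rpl35 was thus higher than unselected under both kinds of ribosomal RNA removal.

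Both rRNA methods were prepared in the same batch over the same lengths and ramps, with different kits, so that the removal step and the kit cannot be told apart. In the edgeR fit 0 members were higher in digestion than in pull-down libraries (34.7% of all genes), 73 were lower (36% of all genes) and 4 were not called. The median log2 fold change was -1.06 (all genes -0.01), a 2.08-fold lower level. On unscaled totals the split was 6 higher and 59 lower, with the median of all genes at 0.55 and the members' median at -1.04 relative to it. With copies added, 1 member was higher and 75 lower, and 73 were lower in both counts. Of the 55 members not split with copies, 54 were lower, with a median of -1.04 and a range from -2.27 to 0.10. At an unadjusted p under 0.05 in the edgeR test 1 member was higher, DESeq2 called 1 higher, and leaving out the shallow pull-down library gave 2 higher and 73 lower. Cell type markers were also lower: 8 of 8 hepatocyte (median -0.42), 5 of 5 immune (-0.88), 4 of 4 endothelial (-0.61), 2 of 3 fibroblast (-0.82, with 1 higher) and 5 of 5 erythroid genes (-6.38). Their part in the members' values was not tested.

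The lowest member against pull-down was Rps27, at -3.48 ± 0.58 (edgeR adjusted p = 4.32e-06) and -1.43 with copies. Rpl21 (chr5:146832890-146837032), of the large subunit, had 134 to 192 normalised CPM in polyA libraries (median 146), 102 to 143 after pull-down (median 113) and 11.9 to 19.8 after digestion (median 14.8). Unselected libraries of batch 2 held 75.5, 81.7 and 72.5, so on this scale digestion libraries lay below every other liver library. Its log2 fold change against pull-down was -2.94 ± 0.05 (edgeR adjusted p = 5.77e-30), and -2.30 with copies added, of which Gm10163 differs at 2 of 480 coding bases. Rpl36a (chrX:134585654-134588062) had 35.2 to 71.4 after pull-down and 3.11 to 9.07 after digestion, a log2 fold change of -3.23 ± 0.07 (edgeR adjusted p = 7.66e-27), which was -2.12 with copies.

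Rpl19 and Rpl38 were similarly low and had the same values in both counts. Rpl19, which reaches across to the small subunit, had 103, 94.9 and 96.6 normalised CPM unselected, 165 to 190 (median 175) after pull-down and 31.4 to 43.7 (median 33.8) after digestion. Its log2 fold change against pull-down was -2.27 in both counts, 4.83-fold lower with copies added. Rpl38, a small protein of the large subunit known for its role in translating Hox mRNAs, had 38.1, 44.6 and 37.5 unselected, 56.2 to 99.4 after pull-down and 13.6 to 22.3 after digestion. It was 4.19-fold lower (log2 -2.07). Rpl32, Rps21 and Rpl26 were at log2 fold changes, copies added, of -1.86, -1.75 and -1.74.

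Rps6, the small subunit protein that S6 kinase phosphorylates, had 182 to 219 normalised CPM after pull-down (median 201) and 47.6 to 98.0 after digestion (median 52.7). The groups did not overlap, and the log2 fold change was -1.70 ± 0.09 (edgeR), or -0.85 with copies. Rpl13a had 183 to 233 after pull-down (median 205) and 78.6 to 88.2 after digestion (median 83.8), against 120, 119 and 122 unselected, with a log2 fold change of -1.30 ± 0.03. Rps4x, the X-linked small subunit protein, was at -1.06 ± 0.06, Rpl41 at -0.99 ± 0.05 and Rpl39, of the exit tunnel, at -0.94 ± 0.08. Rps27l, the paralog of Rps27 that p53 induces, was at -1.05 ± 0.06, and Rps15a at -1.19 ± 0.07.

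The stalk proteins Rplp0, Rplp1 and Rplp2 and the small subunit protein Rpsa lay nearer to 0 than the members' median. Rplp0 had 183 to 285 normalised CPM after pull-down (median 229) and 139 to 157 after digestion (median 146), a log2 fold change of -0.61 ± 0.05. Rplp1 was at -0.50 ± 0.11 and Rplp2 at -0.43 ± 0.09, with overlapping libraries for both. Rpsa, which doubles as a laminin receptor, was at -0.52 ± 0.04, Rps2 at -0.37 ± 0.06 and Rpl12 at -0.24 ± 0.08. On unscaled totals, where the median of all genes was 0.55, Rplp1, Rplp2, Rpsa, Rps2 and Rpl12 were at 0.049, 0.12, 0.032, 0.19 and 0.32, above 0 but below that median. Rpl3, which helps to shape the peptidyl transferase centre, stood between, with 177 to 202 against 101 to 106 and a log2 fold change of -0.89 ± 0.02.

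Members that were not called lower were few. Rps26, which contacts mRNA upstream of the exit site, had 38.0 to 87.4 normalised CPM after pull-down (median 53.9) and 53.9 to 62.5 after digestion (median 56.4), with a log2 fold change of 0.10 in both counts (edgeR adjusted p = 0.172 with copies). Rpl5 and Rpl10 were not called as deposited (0.24 and -0.27) and were lower with copies (-1.13 and -0.70). Rps16 was not called as deposited (0.15) and was higher with copies, at 0.57 (edgeR adjusted p = 1.12e-10). Rps16 is the member whose pull-down level was low against the unselected libraries.

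**Figure D2:**
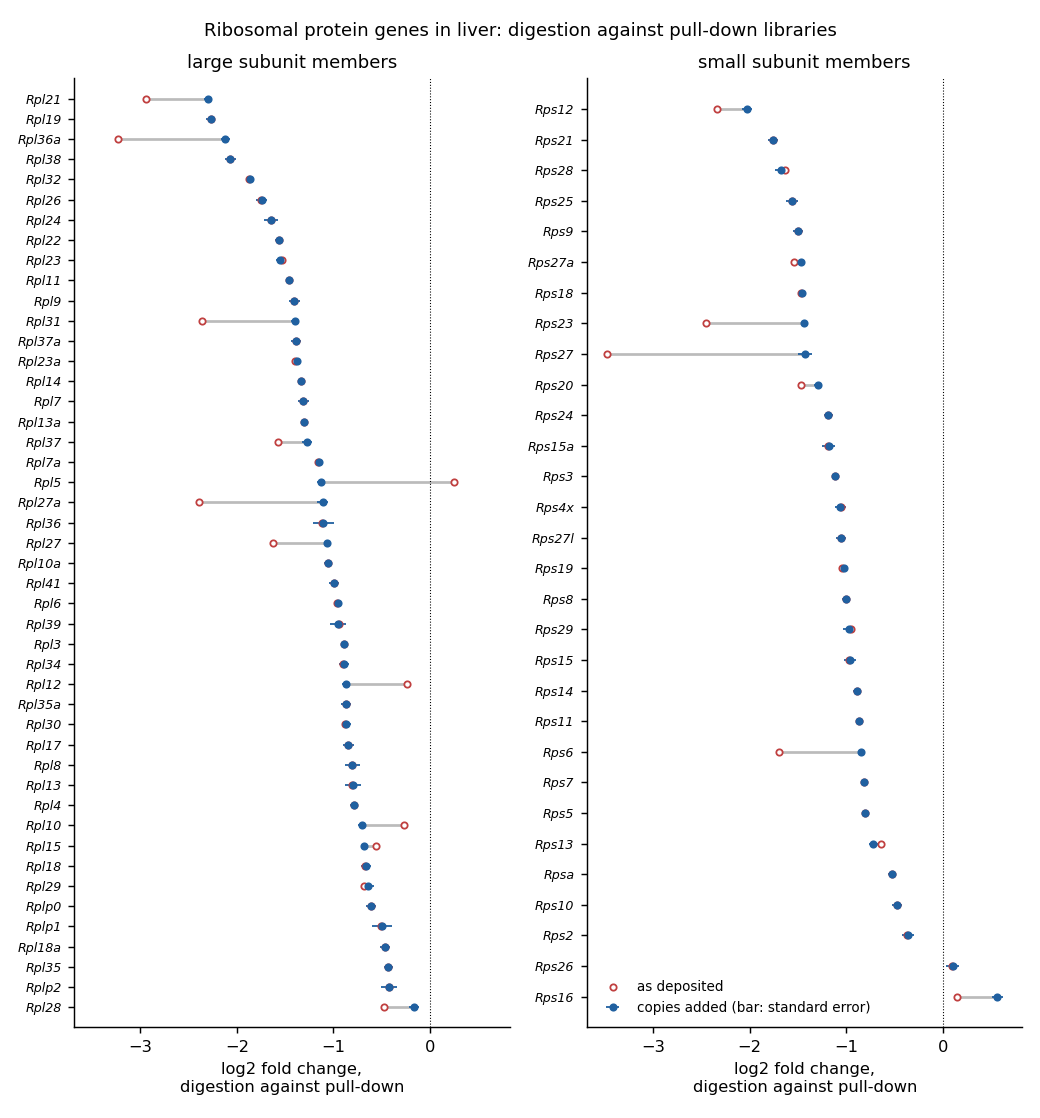
Log2 fold change of digestion against pull-down liver libraries (x axis) for 76 of the 77 tested members (y axis, by subunit), as deposited (open) and with counts of matched copies added (filled, with standard error). With copies added 75 of the 77 tested members are lower and 1 is higher; on unscaled library totals, where the median of all genes is 0.55, 59 are lower and 6 higher as deposited.

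PolyA libraries exceeded digestion libraries in 76 members (38.4% of all genes were higher) and were below them in 1 (42.2% of all genes), with a median log2 fold change of 1.303 in the edgeR fit. The member below was Rpl5 (-0.82 ± 0.16), at 1.25 with copies, where all 77 members were higher by 0.48 to 2.69. Against pull-down libraries, polyA libraries were higher in 48 members (36.4% of all genes) and lower in 6 (36.2% of all genes), with a median of 0.18. With copies added 64 were higher and 0 lower, and 17 members changed call. Rps16 led in both counts (1.04 ± 0.07, and 1.497 with copies), followed by Rpl28 (0.88 and 1.07) and Rps26 (0.60 and 0.61). The members below, Rpl5 (-0.57), Rpl27a (-0.52) and Rps23 (-0.46) among them, turned to 0.12, 0.21 and 0.13 with copies. Cell type markers also differed. Between polyA and digestion libraries, 5 of 5 erythroid (median 6.204) and 7 of 8 hepatocyte genes (0.69, with 1 lower) were higher in polyA, 4 of 4 endothelial (-1.18) and 2 of 3 fibroblast genes (-0.16) were lower, and 2 of 5 immune genes were higher and 2 lower. Between polyA and pull-down libraries, 7 of 8 hepatocyte genes were higher in polyA (0.30, with 1 lower), 5 of 5 immune (-0.93), 4 of 4 endothelial (-1.72) and 2 of 3 fibroblast genes (-0.83) were lower, and 2 of 5 erythroid genes were higher and 2 lower. Their part in the members' values was not tested. PolyA libraries were made in batch 1 and the others in batch 2, so method and batch cannot be told apart here. Between the unselected libraries of the batches, 0 genes were called in either direction in the edgeR fit (0% of all genes), 4 members had an unadjusted p under 0.05 and the members' median was -0.05.

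**Figure D3:**
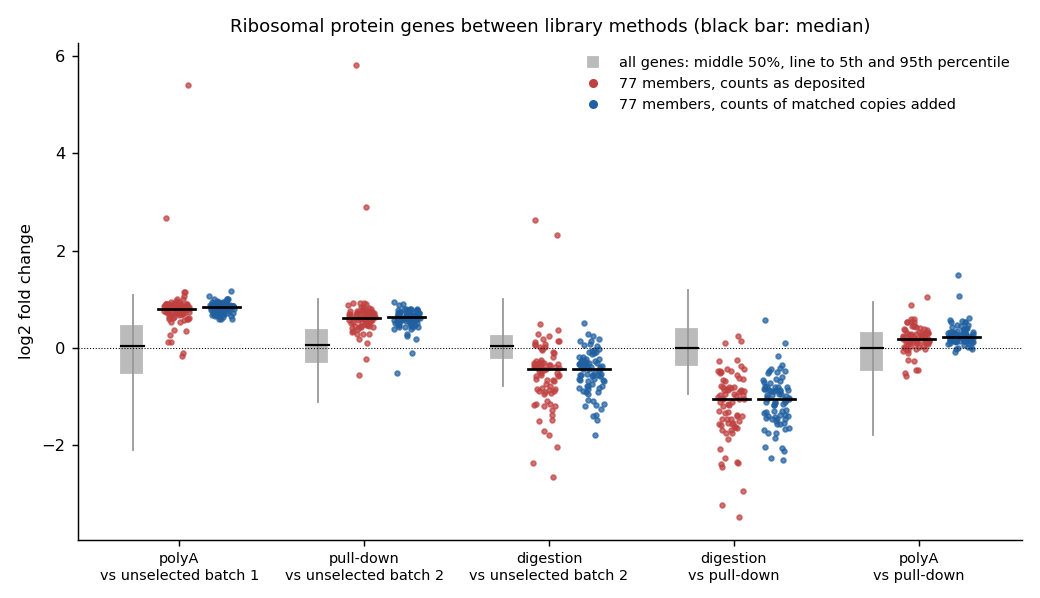
Log2 fold change (y axis) of the 77 tested members between liver library methods (x axis), as deposited (red) and with matched copies added (blue), beside all genes tested (grey: middle 50%, with a line from the 5th to the 95th percentile). Members lie above the median gene in polyA and pull-down libraries and below it in digestion libraries (medians 0.80, 0.62 and -0.43); on unscaled totals the last is 2.39, with all genes at 2.85.

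The order of the members by level was kept better between some methods than others. Over the 55 members not split with copies, Spearman's rho of mean levels was 0.98 between unselected batch 1 and polyA and 0.96 between unselected batch 2 and pull-down. It was 0.78 between unselected batch 2 and digestion. These are correlations across genes, which are not independent replicates, and unselected means rest on fewer counts. Across members, the difference between digestion and pull-down was only weakly related to transcript length (Pearson 0.23, Spearman 0.27, n = 77, sharing the same libraries).

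Short transcripts as a class moved with the members, so the members were set beside other protein-coding genes of like length, on counts as deposited. Between digestion and pull-down, members of up to 600 bases had a median of -1.39 (n = 18) and other genes of that length -0.51 (n = 161). Members above 600 and up to 1000 bases had -1.04 (n = 31) against -0.57 (n = 610), and those above 1000 and up to 2000 bases -0.89 (n = 23) against -0.30 (n = 2788). The 5 longest members had -1.18 against 0.06 (n = 9766). In polyA against unselected libraries the same classes gave 0.83, 0.84, 0.74 and 0.70 for members and 0.61, 0.70, 0.47 and -0.12 for other genes. The part of length in the members' values was not tested.

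Lists of other genes of translation were set beside the members. Of 8 ribosomal genes that the symbol rule leaves out, 7 were lower in digestion than in pull-down libraries (median -0.97; 36% of all genes were lower and 34.7% higher), among them Rps3a1 (-1.13) and Fau, which fuses a ubiquitin-like protein to a small subunit protein (-0.73). Of 20 translation factors with TOP mRNAs, 14 were lower and 4 higher (median -0.46), with the poly(A)-binding protein Pabpc1 at 2.03. Of 24 ribosome biogenesis genes 16 were lower and 3 higher (median -0.23). Of 78 proteins of the mitochondrial ribosome, encoded in the nucleus and short as well, 64 were lower and 8 higher (median -0.56). In polyA against unselected libraries these 4 lists had medians of 0.62, 0.52, 0.27 and 0.65, with 5 of 8, 18 of 20, 10 of 24 and 69 of 78 higher (25.6% of all genes) and 2 biogenesis genes lower (24.8% of all genes). In digestion against unselected libraries the 4 medians were -0.68, -0.19, -0.21 and -0.08. There 4, 9, 7 and 17 genes were lower (7.66% of all genes) and 0, 3, 0 and 3 higher (7.06%). In pull-down against unselected libraries the medians were 0.46, 0.34, 0.07 and 0.45. There 6, 11, 8 and 56 genes were higher (17.5% of all genes) and 0, 4, 4 and 3 lower (15.3%). The difference between these lists and the members was not tested.

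Members were more often higher than lower with long fragments in every method. With long against short fragments in polyA libraries, 43 members were higher (24.9% of all genes) and 7 lower (24.9% of all genes) in edgeR's test, with a median log2 fold change of 0.20 (all genes -0.01). In pull-down libraries 51 were higher (19.1% of all genes) and 0 lower (14.3% of all genes), with a median of 0.35 (all genes 0.03); at an unadjusted p under 0.05, and by DESeq2, the lower ones were also 0, and without the shallow library they were 3. On unscaled totals and on totals without ribosomal RNA and Lars2 they were 8 and 2, with the median of all genes at -0.18 and -0.16. Of the cell type markers in pull-down libraries, 4 of 5 immune (median 0.43), 4 of 4 endothelial (0.22), 3 of 5 erythroid (0.26, with 1 lower) and 1 of 3 fibroblast genes were higher with long fragments and 3 of 8 hepatocyte genes lower (-0.15), and their part was not tested. In digestion libraries 48 were higher (4.33% of all genes) and 2 lower (1.72% of all genes), with a median of 0.28 (all genes 0.02). With copies added the counts were 34 and 10, 47 and 0, and 45 and 0, of which 33, 47 and 43 were higher in both counts. The members' medians with copies added were 0.097 (polyA), 0.245 (pull-down) and 0.247 (digestion). Fitted on the 9 pull-down libraries alone, 23 members in place of 51 were higher, and on the 9 polyA libraries alone 12 in place of 7 were lower.

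Rps21, Rps29 and Rpl39, all with short transcripts, were higher with long fragments in each method. Rps21, a small subunit protein, had 60.7, 61.5 and 59.6 normalised CPM in short-fragment polyA libraries and 85.9, 87.3 and 69.6 in long-fragment ones. It had 50.8, 51.9 and 51.1 against 98.9, 98.4 and 78.2 in pull-down libraries. In digestion libraries it had 16.3, 14.9 and 16.2 against 25.1, 25.3 and 24.8. Long and short libraries did not overlap in any method, and the log2 fold change with copies added was 0.83 in pull-down and 0.68 in digestion. Rps29, one of the smallest proteins of the ribosome, rose by 0.91 and 0.65 in the same comparisons. Rpl39, which lines the exit tunnel, was at 49.9, 41.9 and 42.9 with short fragments and at 47.4, 87.3 and 90.4 with long ones after pull-down. Its low long-fragment value is that of the shallow library, which overlapped the short ones. In polyA libraries Rpl39 had 58.5, 46.7 and 45.5 with short and 69.8, 56.5 and 59.3 with long fragments, with overlap (log2 fold change 0.28). In digestion libraries it had 28.4, 27.3 and 26.9 against 36.3, 34.4 and 34.5, with no overlap (0.37).

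Rps2 and Rpl13 fell with long fragments in polyA libraries. In polyA libraries Rps2 had 365, 414 and 384 normalised CPM with short and 291, 292 and 296 with long fragments, a log2 fold change of -0.42 (-0.44 with copies). Rpl13 had 131, 143 and 136 against 112, 107 and 97.7 (-0.39, and -0.40 with copies). In digestion libraries the same 2 genes had higher values with long fragments, at 256, 259 and 252 against 237, 240 and 244 for Rps2, though neither was called. For Rpl13 the length effect in polyA minus that in digestion libraries was -0.71. In pull-down libraries Rps2 had 278 and 271 in the deeper long-fragment libraries and 412 in the shallow one, against 327, 349 and 340 with short fragments. Rpl13 had 108 and 93.3, and 200.2 in the shallow one, against 117, 123 and 112, and neither was called there (-0.11 and -0.013). The larger length effects as deposited are of split genes: Rpl27 in digestion libraries went from 1.89 to 0.37 with copies and Rps23 from 1.68 to 0.49, Rpl27 in polyA libraries from 1.34 to 0.061, and Rpl10 in polyA libraries from -1.01 to 0.059. Rps27, at -3.78 ± 0.93 in digestion libraries, turned to 0.36, and its call was lost without any 1 of the 3 long-fragment libraries or the fast-ramp short one.

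By length class, and on counts as deposited, members of up to 600 bases rose by medians of 0.34 (polyA), 0.65 (pull-down) and 0.44 (digestion). Other genes of that length rose by 0.09, 0.26 and 0.27. Members over 2000 bases had medians of 0.35, 0.32 and 0.18, against 0.00, 0.01 and 0.01 over other genes. Members had the higher median in both classes in all 3 methods, on 18 and 5 members, as deposited. For the 22 members split with copies, of any length, the medians fell when copies were added. They went from 0.43 to 0.067 (polyA), 0.53 to 0.19 (pull-down) and 0.62 to 0.25 (digestion).

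**Figure D4:**
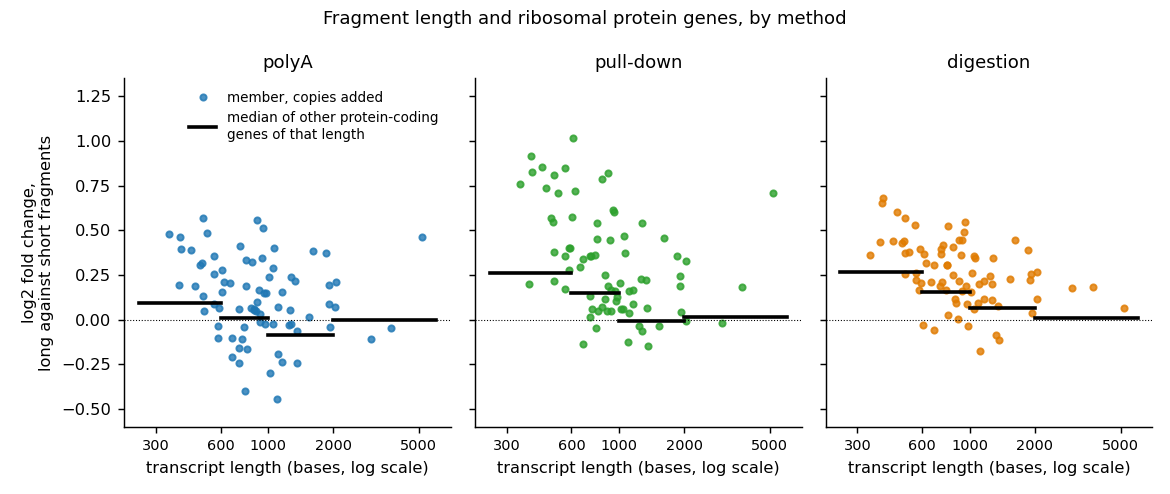
Log2 fold change of long against short fragments (y axis) for the 77 tested members with copies added, by transcript length in bases (log x axis), in polyA, pull-down and digestion libraries; black lines are medians of other protein-coding genes in 4 length classes, as deposited. Members of up to 600 bases lie mostly above 0. The members' median is 0.097, 0.245 and 0.247 with copies added, as plotted, and 0.20, 0.35 and 0.28 as deposited.

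The length effect itself differed between methods for some members, in the interaction test of the edgeR fit. Between polyA and digestion it was higher in polyA for 6 members (15.7% of all genes) and lower for 26 (17% of all genes). Between pull-down and digestion it was higher in pull-down for 14 (8.1% of all genes) and lower for 5 (6.34% of all genes), or 8 and 21 on unscaled totals, where the median of all genes was -0.19 and that of the members -0.14. Between polyA and pull-down it was higher in polyA for 2 (1.38% of all genes) and lower for 14 (1.62% of all genes). With copies added these counts were 2 and 23, 12 and 3, and 0 and 19. DESeq2 called 17 lower between polyA and digestion and 10 lower between pull-down and digestion. Without the shallow pull-down library the counts were 10 in place of 6 higher between polyA and digestion, 16 in place of 5 lower between pull-down and digestion, and 26 in place of 14 lower between polyA and pull-down. Among members not split with copies, Rps15a had the larger length effect in pull-down than in digestion libraries (difference 0.64) and Rpl39 the larger in pull-down than in polyA libraries (polyA minus pull-down -0.72).

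Single libraries also moved the smaller of these counts. Members lower with long fragments in polyA were 4 in place of 7 without the fast-ramp long, the medium-ramp short or the fast-ramp short polyA library. Members lower in digestion were 1 in place of 2 without any of the 3 long-fragment or the fast-ramp short digestion library. Without the slow-ramp long digestion library the polyA-minus-digestion effect was lower for 14 members in place of 26, and it was lower for 17 without the fast-ramp short library of either method. It was higher for 3 in place of 6 without the slow-ramp long, medium-ramp short or fast-ramp short polyA library. The pull-down-minus-digestion effect was lower for 2 in place of 5 without the slow-ramp long or medium-ramp short digestion library. The polyA-minus-pull-down effect was higher for 1 in place of 2 without the fast-ramp long or fast-ramp short polyA or the medium-ramp short pull-down library.

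Ramp rate gave few calls. Between fast and slow ramp 1 member was called (0.0712% of all genes in either direction), Rpl35 at 0.19 ± 0.03 (edgeR adjusted p = 0.033), and 9 members had an unadjusted p under 0.05. The call was lost in 7 fits that left out 1 library: the medium-ramp long or medium-ramp short digestion library, the medium-ramp long, slow-ramp short or fast-ramp short polyA library, or the slow-ramp short or fast-ramp short pull-down library. Without the shallow pull-down library 2 members were higher and 2 lower. The members' median was 0.00.

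Most members were somewhat lower in heart than in liver relative to the median gene, among them Rpl3 and Rps27l, while their share of nuclear protein-coding counts was higher (1.07% against 0.981% to 1.02% in the 6 liver libraries, and 1.05% without Rpl3l). Their share of counts without ribosomal RNA genes and Lars2 was lower, at 0.405% against 0.607% to 0.672%. As a percentage of all counts they held 0.144% in heart against 0.125% to 0.131%. The single unselected heart library was fitted with the 6 unselected liver libraries in edgeR, with batch as a term, so its spread is taken to be that of liver preparations. Of 78 tested members, 3 were higher (34.8% of all genes), 54 lower (33.6% of all genes) and 21 were not called, with a median log2 fold change of -0.38 against 0.01 over all genes; on unscaled totals 28 were higher and 7 lower, with medians of 0.15 and 0.53. Rpl3l passed the low-count filter only through the heart library; without it, 2 of 77 were higher, 54 lower and 21 not called. Relative to the median gene the members' median was -0.39. DESeq2 called 3 higher and 37 lower. Summed markers were higher in heart for fibroblasts (85.5 against 18.3 to 22.1 normalised CPM; 3 of 3 genes higher), for endothelial cells (89.8 against 38.3 to 44.3; 3 of 4 higher and 1 lower, at -8.91) and for erythroid cells (123 against 69.2 to 80.3; 4 of 5 higher and 1 lower), and their part in these values was not tested; fewer cells of a type and less RNA per cell cannot be told apart in bulk tissue.

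Rpl3l, a paralog of Rpl3 known from striated muscle (chr17:24727820-24736143, 10 exons), had 539 counts in heart and 2 counts over the 6 unselected liver libraries, 1 in each of 2 of them. The ratio of levels was 1057, with a 95% exact interval of 291 to 8750 that covers counting error only. Its call, fixed by the filter, carries no weight. Rpl3 itself (chr15:80077791-80091868) had 12.6 normalised CPM in heart and 28.2 to 31.2 in liver, on the scale of the unselected libraries, a log2 fold change of -1.21 ± 0.08 (edgeR adjusted p = 1.15e-12). Per kilobase, Rpl3l made up 58.5% of Rpl3 plus Rpl3l in heart and at most 0.170% in any liver library. The genes listed as skeletal muscle markers (Acta1, Ckm, Myh4, Tnnt3, Actn3) summed to 164 in heart, with 2 of 5 at 0. All 5 were at 0 in liver. Which cells of the heart gave these counts was not tested.

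Rps27l was the lowest called member in heart, with 2.48 normalised CPM against 9.60 to 11.1 in liver (-2.04 ± 0.15, edgeR adjusted p = 1.2e-11), while Rps27, split between copies, was not called (-0.12). The sum of Rps27 with its copies was not called either (-0.13, edgeR adjusted p = 0.262). Rpl10 was at -1.67 ± 0.24 (-1.25 with copies), Rps27a, a fusion with ubiquitin, at -0.94, Rpl13a at -0.74, Rplp1 at -0.70 and Rps6 at -0.62. Smaller called differences were those of Rpl41 (-0.49), Rpl39 (-0.47), Rpsa (-0.41), Rps2 (-0.34) and Rps4x (-0.34), and on unscaled totals these 5 turned to between 0.033 and 0.18. Rplp0 (0.08) and Rplp2 (0.14) were not called, so the stalk proteins did not share 1 value.

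The other members called higher in heart were Rps13 (0.28 ± 0.10, edgeR adjusted p = 0.0133), with 13.9 normalised CPM against 10.8 to 14.04, and Rps29 (0.26 ± 0.09, edgeR adjusted p = 0.0158), with 18.2 against 13.7 to 16.2. The heart value of Rps13 lay within the range of the liver libraries. Rps13 lost its call without the second and Rps29 without the third unselected liver library of batch 1 (as did Rpl39, lower in heart, at -0.33 without the third), and on totals without ribosomal RNA they were at -0.088 and -0.11. Of the mitochondrial ribosome's 77 tested proteins, 37 were higher and 8 lower in heart (median 0.36), and of the 20 translation factors 5 were higher and 8 lower, with Eef1a1 at -2.82, beside 34.8% higher and 33.6% lower over all genes. The count for the translation factors is near that background. Testis-type paralogs were at the limit in both organs: Rpl10l had 0 counts in every library, and Rpl39l had 1 in heart and at most 2 in a liver library.

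**Figure D5:**
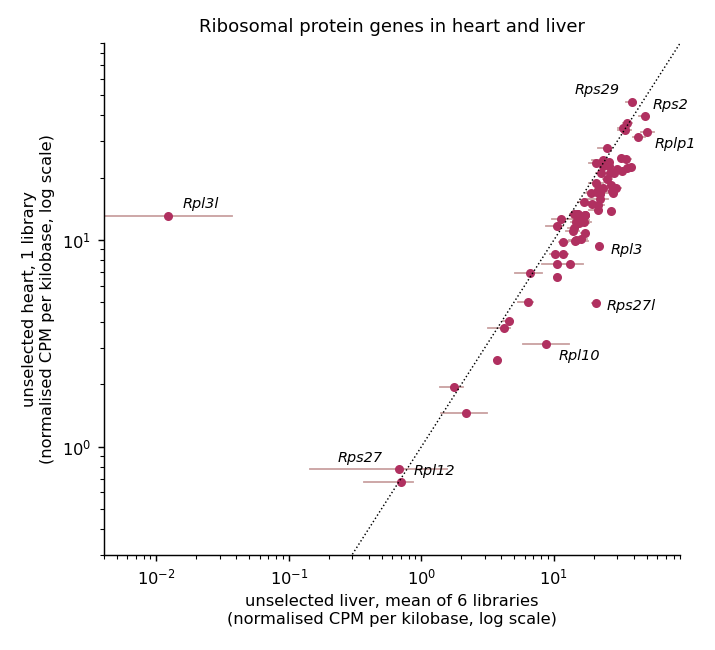
Normalised CPM per kilobase in the heart library (log y axis) against the mean of 6 unselected liver libraries (log x axis) for members with a count in both, with lines from the lowest to the highest liver library (cut at the left edge where a library had 0) and a dotted line of equality. Rpl3l stands alone far left of the line, Rpl3 and Rps27l lie below it, and the members' median is -0.38 (log2); on unscaled totals it is 0.15, with all genes at 0.53.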

How the data were processed

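The authors deposited 1 table of estimated counts (expected counts) per gene for the 34 libraries. The submitters' processing notes name Salmon 1.9.0, UMI-tools 1.1.1, R 4.4.0 and the build GRCm38 without roles, and how reads shared by copies were assigned is not given in the sources used here. Of 51368 gene IDs, 50896 matched GENCODE M21 (GRCm38), which gave symbols, types and lengths.

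Counts were rounded and tested in R 4.3.3 with edgeR 4.0.16 (TMM, filterByExpr, quasi-likelihood test, Benjamini-Hochberg over all genes tested, threshold 0.05), after checks on simulated data. The method comparisons used 33 liver libraries with group, ramp and length as terms. Length and ramp comparisons used 27 selected libraries with method, length, their interaction and ramp. Heart was fitted with the 7 unselected libraries and a batch term. Standard errors are the log2 fold change divided by the root of F. Alternatives were DESeq2 1.42.0, other scalings, no filter, copies added, fewer libraries and leaving out single libraries. Exact counting intervals cover counting error only.

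Named members are the 3 highest and 3 lowest called in each comparison, a fixed set (stalk proteins, paralog pairs, reference genes), the 3 highest and lowest per kilobase, and a few chosen after their values were seen: Rpl19, Rpl38, Rpl32, Rps21, Rpl26 and others named for a value with copies added. Members and gene lists were chosen with earlier results of these data known. Values of single genes that are withheld are not reported here.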

Additional observations from a re-analysis of the deposited data

Results flagged for a closer look

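Values of 57 sets of 4 to 10 libraries, each for 1 named member in 1 group, were searched for a library far from the others, which chance alone marks in about 1 in 20. In 4 sets a library stood apart, each time the shallow pull-down library with the slow ramp and long fragments. It was the highest for Rplp1 (302 normalised CPM) and Rpsa (307), and the lowest for Rps4x (106) and Rpl12 (3.27).

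The effect of fragment length (long against short, log2) differed between methods for 17 results of named members, by the interaction test in edgeR. These members were named as up to 3 highest and 3 lowest called in each of these comparisons, so that their being called was fixed by the choice. Between polyA and digestion libraries the difference was 2.98 for Rps27, 1.63 for Rpl5, 0.56 for Rps13, -1.13 for Rpl10, -0.71 for Rps23 and -0.71 for Rpl13. Between pull-down and digestion libraries it was 5.46 for Rps27, 1.61 for Rpl5, 0.64 for Rps15a, -0.84 for Rps6, -0.56 for Rpl27 and -0.47 for Rps12. Between polyA and pull-down libraries it was 0.57 for Rps6, 0.41 for Rpl15, -0.86 for Rpl27a, -0.75 for Rpl37 and -0.72 for Rpl39. All but Rps15a and Rpl39 are members that hold less than 90% of the counts of their family in some liver group. The call was lost in at least 1 fit without a library for Rps27, Rps13 and Rpl10 between polyA and digestion, for Rpl27 and Rps12 between pull-down and digestion, and for Rps6 and Rpl15 between polyA and pull-down.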

How the results depend on the processing

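Depth limits what the unselected libraries show, and 1 animal and 1 heart library limit what any comparison reaches. Changes of a member split with copies rest on how reads were assigned. Among the values of single members and medians under all settings, 1685 kept direction and side of the threshold, 86 lost and 6 gained the threshold, 14 moved and 47 turned direction. Of the counts of members called and the like, 481 stayed within 1.5 times and 73 did not. Where no construction of the setting is named, the cause was not tested.

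On unscaled library totals (the median of all genes moves with the share of ribosomal RNA), counts of members became 0 lower for pull-down against unselected, 76 higher and 0 lower for digestion against unselected, 1 lower for polyA against pull-down, 6 higher for digestion against pull-down, 8 lower for long against short in pull-down, 8 higher and 21 lower for the length effect of pull-down minus digestion, 5 higher for that of polyA minus pull-down, and 28 higher and 7 lower for heart. Values that turned were Rps16 in pull-down against unselected (1.70), the median (2.39), Rpl36a (0.17), Rpl21 (0.44) and Rps23 (0.77) in digestion against unselected, Rplp1 (0.049), Rplp2 (0.12), Rpsa (0.032), Rps2 (0.19) and Rpl12 (0.32) in digestion against pull-down, and the median (0.15), Rpsa (0.11), Rpl39 (0.054), Rps4x (0.18), Rpl41 (0.033) and Rps2 (0.18) in heart.

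On totals without ribosomal RNA and Lars2, the counts were 28 higher and 25 lower for digestion against unselected, 2 lower for polyA against pull-down, 5 higher for digestion against pull-down, 2 lower for long against short in pull-down, 14 lower for the length effect of pull-down minus digestion, 0 higher for ramp and 1 higher for heart. The median of digestion against unselected turned to 0.12; Rplp1, Rplp2, Rpsa, Rps2 and Rpl12 in digestion against pull-down to 0.029, 0.12, 0.014, 0.17 and 0.32; and Rps13, Rps29 and Rplp0 in heart to -0.088, -0.11 and -0.29.

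With copies added by name, the counts were 1 higher for digestion against unselected, 2 lower for polyA against pull-down, 1 higher for digestion against pull-down, 2 lower for the length effect of pull-down minus digestion and 0 higher for that of polyA minus pull-down. Rpl10 and Rpl15 in digestion against unselected turned to -0.19 and -0.062, Rps23 in polyA against pull-down to 0.13, Rpl10 with length in polyA to 0.065, and the length effects of Rps13 (polyA minus digestion), Rps6 (pull-down minus digestion) and Rpl15 (polyA minus pull-down) to -0.14, 0.044 and -0.0032. With copies added by sequence (chosen after seeing the data), the counts were 1 higher for digestion against unselected, 0 lower for polyA against digestion and against pull-down, 1 higher for digestion against pull-down, 0 lower for length in digestion, 2 higher for the length effect of polyA minus digestion, 3 lower for that of pull-down minus digestion and 0 higher for that of polyA minus pull-down. Rpl10 and Rpl15 in digestion against unselected turned to -0.19 and -0.065, Rpl5 in polyA against digestion to 1.25, Rpl5, Rpl27a and Rps23 in polyA against pull-down to 0.12, 0.21 and 0.13, Rpl10 with length in polyA to 0.059, Rps27 and Rpl5 with length in digestion to 0.36 and 0.11, and Rpl12 in heart to -0.50. Length effects turned for Rpl5 and Rps13 (polyA minus digestion, -0.041 and -0.14), Rpl5 and Rps6 (pull-down minus digestion, -0.12 and 0.045) and Rps6 (polyA minus pull-down, -0.000612).

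DESeq2 gave 1 higher for digestion against pull-down, 17 lower for the length effect of polyA minus digestion, 10 lower for that of pull-down minus digestion and 2 higher for ramp. The 9 libraries of a method alone (fewer samples) gave 12 lower for polyA and 23 higher for pull-down with length. For unselected batch 2 against batch 1, the 6 unselected libraries alone gave 1 member higher without and 1 with the replicate block; same-numbered libraries correlated at 0.04, -0.07 and -0.14 in their deviations over 8973 genes, so the numbers do not pair them.

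Leaving out 1 library at a time, counts of members for the method comparisons ranged, higher and lower, over 68 to 73 and 0 to 0 (polyA against unselected), 64 to 70 and 1 to 1 (pull-down against unselected), 2 to 5 and 45 to 55 (digestion against unselected), 76 to 76 and 1 to 1 (polyA against digestion), 48 to 54 and 6 to 9 (polyA against pull-down), and 0 to 2 and 73 to 73 (digestion against pull-down). For length they ranged over 36 to 46 and 4 to 9 (polyA), 38 to 52 and 0 to 3 (pull-down) and 36 to 58 and 1 to 3 (digestion). The differences of length effects ranged over 3 to 10 and 14 to 32 (polyA minus digestion), 10 to 20 and 2 to 16 (pull-down minus digestion), and 1 to 2 and 10 to 26 (polyA minus pull-down). Ramp gave 0 to 2 and 0 to 2, heart 2 to 3 and 49 to 55. The call of Rps27 with length in pull-down was also lost without any 1 of 4 pull-down libraries.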
